A study of Mus musculus with 20 samples.

Results

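Among the 14 lung metastases of a mouse sarcoma series, 5 held Myod1 mRNA at 10 CPM (read counts scaled to a common library total) or more and 9 held less, and these 2 classes were compared across all genes. Myod1 encodes MyoD, the transcription factor that commits cells to skeletal muscle, and the question was whether a myogenic tumour programme or mature host muscle set the classes apart. The members were selected on the measured Myod1 CPM itself, so Myod1 was left out of the comparison and its values are a description. The CPM scale rests on library totals corrected by the trimmed mean of M values over all 20 libraries. The 5 metastases called Myod1-high here held Myod1 at 130 CPM (metastasis 2-3, the third of set 2), 50.9 CPM (3-1), 34.9 CPM (2-4), 23.4 CPM (6-2) and 20.9 CPM (6-1). The 9 Myod1-low metastases ran from 0.129 CPM (1-1) over a median of 0.515 CPM to 6.93 CPM (3-2), with 2.91 CPM in 2-1 as the next value below the top. The threshold therefore lay between 20.9 CPM in 6-1 and 6.93 CPM in 3-2, and moving it to 20 CPM changed no class.

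The series measured RNA in 6 primary tumours and 14 lung metastases of mice on a mixed background, in 6 sets that each pair a primary tumour with 1 to 4 metastases, and its title concerns the long noncoding RNA NEAT1 in sarcoma metastasis. Sets 1 and 2 hold 4 metastases each, sets 3 and 6 hold 2 each, and sets 4 and 5 hold 1 each (the metastasis of set 5, 5-x here, has no number). The tumour-initiating alleles, the animals' age and sex, the site of the primary tumours and any treatment are not stated in the labels. Metastases of a set may come from the same animal, so p-values treat as independent libraries that may share a tumour, and they measure only the spread between these libraries.

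MyoD is a helix-loop-helix factor that binds E-boxes, DNA hexamers of the form CANNTG, and with Myf5 it places cells in the myoblast state. Myogenin, encoded by Myog, follows as myoblasts stop dividing and fuse, and the embryonic and neonatal myosins and the fetal acetylcholine receptor are made at this stage before adult fast or slow myosins replace them. Mature fibres hold little MyoD, while tumours of the rhabdomyosarcoma type often express MyoD and myogenin without completing differentiation.

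Library totals ran from 20603620 to 36824370 counts, and several libraries stood apart or did not match their labels. Metastases 2-3 and 2-4 held the liver transcript Alb at 7703 and 942 CPM, against at most 7.91 CPM in the other metastases, and the alveolar transcript Sftpc at 2.08 and 0.361 CPM, although both are labelled lung. Metastases 3-2 and 4-1 held the small structural RNA Rmrp at 117 and 31.2 CPM, where each of the other metastases held at least 1489 CPM. The gene model Gm8730, chosen after its values were seen, lay between 29.9 and 63.9 CPM in the Myod1-high metastases and between 0.118 and 1.19 CPM in the Myod1-low metastases (log2 fold change 6.36 ± 0.41 SE, edgeR adjusted p = 1.63e-06). It stood at 87 CPM in primary tumour P2, 51.1 CPM in P3 and 70.6 CPM in P6, and between 0.214 and 0.32 CPM in P1, P4 and P5. Hmga1b, also chosen after its values were seen, had the same division (23.6 to 48.2 CPM against 0.385 to 2.21 CPM in metastases, 11.6 to 19.3 CPM in P2, P3 and P6). Near-identical gene copies can share reads of both genes. Metastases 2-1, 2-2 and 3-2 thus differed in both genes from the primary tumour of their own set, and Myod1 class and these 2 genes cannot be told apart in this design. The gene model Gm10036, also chosen after its values were seen, lay between 0.481 and 1.33 CPM in the Myod1-high metastases. In the Myod1-low metastases it was at 1.06 CPM in 3-2 and between 49.9 and 171 CPM in the rest. It was at 137 CPM in P6 but at 1.33 and 1.01 CPM in 6-1 and 6-2. The X-inactivation RNA Xist and the Y-linked Ddx3y, which mark female and male cells, were at 6071 and 0.427 CPM in P4 but at 1.51 and 189 CPM in 4-1. Xist was at 80.2 CPM in 2-1 and 296 CPM in 3-2, against 0.121 CPM in P2 and 0.0543 CPM in P3, with Ddx3y at 62 and 42.2 CPM in the same 2 metastases. The set block and the differences within sets 2 and 3 rest on these set labels. Only sets 2 and 3 held both classes, set 6 held Myod1-high and sets 1, 4 and 5 held Myod1-low metastases alone. Metastases 6-1 and 6-2 were the closest pair, with r = 0.995 between their log2 CPM across genes. Their counts over 19528 genes differed by more than sampling noise (chi-square over degrees of freedom 26.3), so they are not 1 library deposited again, but they may come from 1 tumour. With both summed as 1 library, 1268 genes were higher and 1205 lower, and 20 of 23 embryonic and fusion genes were higher.

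The upstream sequences of 4 genes that separated the classes are printed below to show the E-boxes near their starts, because MyoD and myogenin bind this motif. Each is the 250 bases before the RefSeq start in GRCm38.p6, which for Chrng and Myog lies inside the GENCODE gene span given with the values, 5′ to 3′ on the gene's own strand, with each CANNTG in capitals. Myog lies at chr1:134289754-134290003 (plus strand), Chrng at chr1:87205561-87205810 (plus strand), Mybph at chr1:134193198-134193447 (plus strand) and Myh3 at chr11:67078050-67078299 (plus strand).
Myog: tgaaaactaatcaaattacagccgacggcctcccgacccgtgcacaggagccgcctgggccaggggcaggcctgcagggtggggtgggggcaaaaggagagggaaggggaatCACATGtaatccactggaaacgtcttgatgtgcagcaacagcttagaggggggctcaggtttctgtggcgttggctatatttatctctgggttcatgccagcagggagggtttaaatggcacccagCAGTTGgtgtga
Chrng: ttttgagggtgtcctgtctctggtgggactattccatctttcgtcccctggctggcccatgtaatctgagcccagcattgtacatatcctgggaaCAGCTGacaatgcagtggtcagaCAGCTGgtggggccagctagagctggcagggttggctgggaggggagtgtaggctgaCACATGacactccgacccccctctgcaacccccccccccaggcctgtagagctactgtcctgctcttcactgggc
Mybph: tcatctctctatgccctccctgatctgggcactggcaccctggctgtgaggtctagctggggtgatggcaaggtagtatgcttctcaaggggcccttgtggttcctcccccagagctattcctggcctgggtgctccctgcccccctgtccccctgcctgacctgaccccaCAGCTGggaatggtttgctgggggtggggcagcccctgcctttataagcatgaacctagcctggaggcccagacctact
Myh3: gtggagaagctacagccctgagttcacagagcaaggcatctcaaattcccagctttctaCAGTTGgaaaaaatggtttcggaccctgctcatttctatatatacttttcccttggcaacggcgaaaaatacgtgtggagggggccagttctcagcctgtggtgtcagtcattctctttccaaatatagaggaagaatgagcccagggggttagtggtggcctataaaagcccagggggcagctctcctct
Chrng held 3 CANNTG matches of which 2 were CAGCTG, the form often preferred by MyoD, Mybph held 1 that was CAGCTG, Myog held 2 and Myh3 held 1 of other forms. CANNTG reads as CANNTG on either strand, so 1 search covers both, and CAGCTG is among its forms. CAGCTG was in 6 of 17 windows (35.3%) of the embryonic and fusion muscle genes, of which 16 of 23 genes had a RefSeq window, and in 14 of 30 windows (46.7%) of the adult fast fibre genes. It was in 28% of the windows of the shared sarcomere genes, 15.8% of the myogenic regulators and 7.69% of the satellite cell and myoblast surface genes, against 4271 of 32851 windows (13%) of all genes. CANNTG was in 76.5% of the embryonic and fusion windows, 47.4% of the regulators' windows and 66.2% of all windows. A match is a description of these letters and does not show binding.

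The edgeR quasi-likelihood test over 18236 genes called 1609 genes higher (8.82% of those tested) and 1843 lower (10.1%) in the Myod1-high metastases at an adjusted p under 0.05. All 5 Myod1-high metastases lay above all 9 Myod1-low metastases in 797 genes (4.37%) and below all of them in 692 genes (3.79%). With the set as a block, so that only sets 2 and 3 inform the difference, 499 genes were higher (2.74%) and 244 lower (1.34%). When the metastases of a set were summed within each class, giving 3 Myod1-high and 5 Myod1-low samples, edgeR called 4 genes higher (Gm29718, Atp6v0c-ps2, Gm8730 and Hmga1b) and 0 lower, none of them in a gene list, while 1643 and 2001 passed unadjusted at 0.05 and DESeq2 called 703 and 1159. Leaving out the metastases of set 2 left 120 genes higher and 153 lower. Fold changes are Myod1-high minus Myod1-low on the log2 scale with their standard error (SE). Their median over all genes tested was -0.01. In the myogenic lists more genes were called higher than lower, and in the lists of lung, blood and immune cells the calls were all lower. In bulk tissue, fewer cells of a type and less RNA per cell cannot be told apart.

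**Figure D1:**
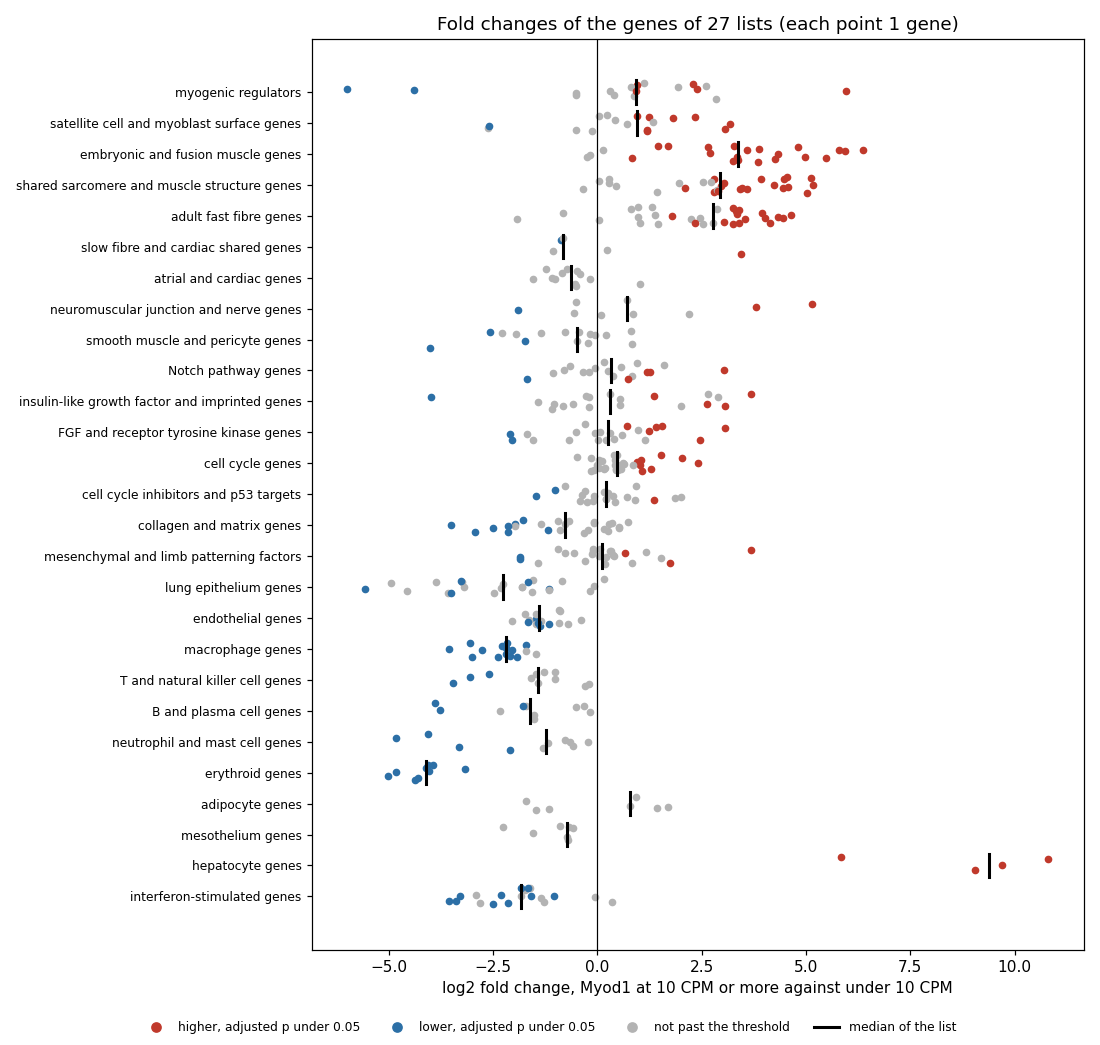
Log2 fold change (Myod1-high minus Myod1-low metastases) of every tested gene in each of the 27 gene lists, with red points for genes called higher, blue for genes called lower, grey for the rest and a bar at the list median. The embryonic and fusion list has 20 of 23 genes called higher and a median of 3.37, and the erythroid list has 9 of 9 called lower and a median of -4.11.

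Of 17 tested myogenic regulators other than Myod1, 5 were higher and 2 lower, with a median log2 fold change of 0.93. Myog, the factor of terminal differentiation (chromosome 1, 134289989 to 134292548, plus strand, mm10), had 355, 78.7, 27.7, 9.01 and 8.39 CPM in 2-3, 3-1, 2-4, 6-2 and 6-1. In the Myod1-low metastases Myog ran from 0.148 over a median of 0.451 to 6.24 CPM. Every Myod1-high metastasis was above every Myod1-low one, and mean Myog was 62.8-fold higher (log2 fold change 5.97 ± 1.06 SE, adjusted p = 0.00204). With the set as a block its log2 fold change was 5.29 (adjusted p = 0.0287). Hes6, which promotes myogenic differentiation, had 173, 66.5, 86.1, 65.2 and 57.1 CPM in 2-3, 3-1, 2-4, 6-2 and 6-1 against 1.81 to 28.2 CPM, again with no overlap (2.29 ± 0.44 SE, adjusted p = 0.00295). Eya1, a transcriptional cofactor of early myogenesis, was higher by 2.39 on the log2 scale (adjusted p = 0.00622), although 3-2 at 89.9 CPM was above 3 of the Myod1-high metastases. Dmrt2 (0.93, adjusted p = 0.0268) passed the test with overlapping groups. Eya1 and Dmrt2 did not pass with the set as a block (adjusted p = 0.0695 and 0.214). The count of 5 was 9 without 3-2, 3 without 3-1, 3 without 6-2, 2 without set 1, 2 with the set as a block and 1 without set 2. It was 0 with the metastases summed per set and class (6 unadjusted in edgeR, 3 by DESeq2). With the mean log2 CPM of the adult fast fibre list or of the lung epithelium list as a covariate it was also 0.

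Myf5, the other factor that commits cells to muscle, did not separate the classes. It stood at 162, 89.2, 84.7, 49.4 and 51.3 CPM in 2-3, 3-1, 2-4, 6-2 and 6-1 and between 19.2 and 104 CPM in the Myod1-low metastases, with a median of 43.4 CPM. The groups overlapped, with 3-2 the highest of the Myod1-low at 104 CPM (log2 fold change 0.88 ± 0.38 SE, adjusted p = 0.121). Myf6 had 1.11 ± 0.56 SE (adjusted p = 0.185) and Pax7, the satellite cell factor, 2.60 ± 0.90 SE (adjusted p = 0.0567). Pax3, a factor of embryonic muscle and limb-migrating precursors, went the other way, at 0, 0.0992, 0.0601, 0 and 0.0318 CPM in 2-3, 3-1, 2-4, 6-2 and 6-1. In the Myod1-low metastases Pax3 ran from 0.117 over 2.35 to 4.98 CPM, all above the Myod1-high ones (-5.99 ± 0.89 SE, adjusted p = 0.000861, and 0.0614 with the set as a block). The Myod1-high values and the lowest Myod1-low value of Pax3 rest on very few reads. Pax3 passed the expression filter through the Myod1-low metastases alone, so its lack of overlap is a description. Eya4, a paralogue of Eya1, was at most 5.26 CPM in the Myod1-high and at least 16.3 CPM in the Myod1-low metastases (-4.39 ± 0.55 SE, adjusted p = 0.00049). Among the regulators Six4, Mef2a, Mef2c, Mef2d, Msc, Vgll2 and Tcf12, did not pass the test.

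**Figure D2:**
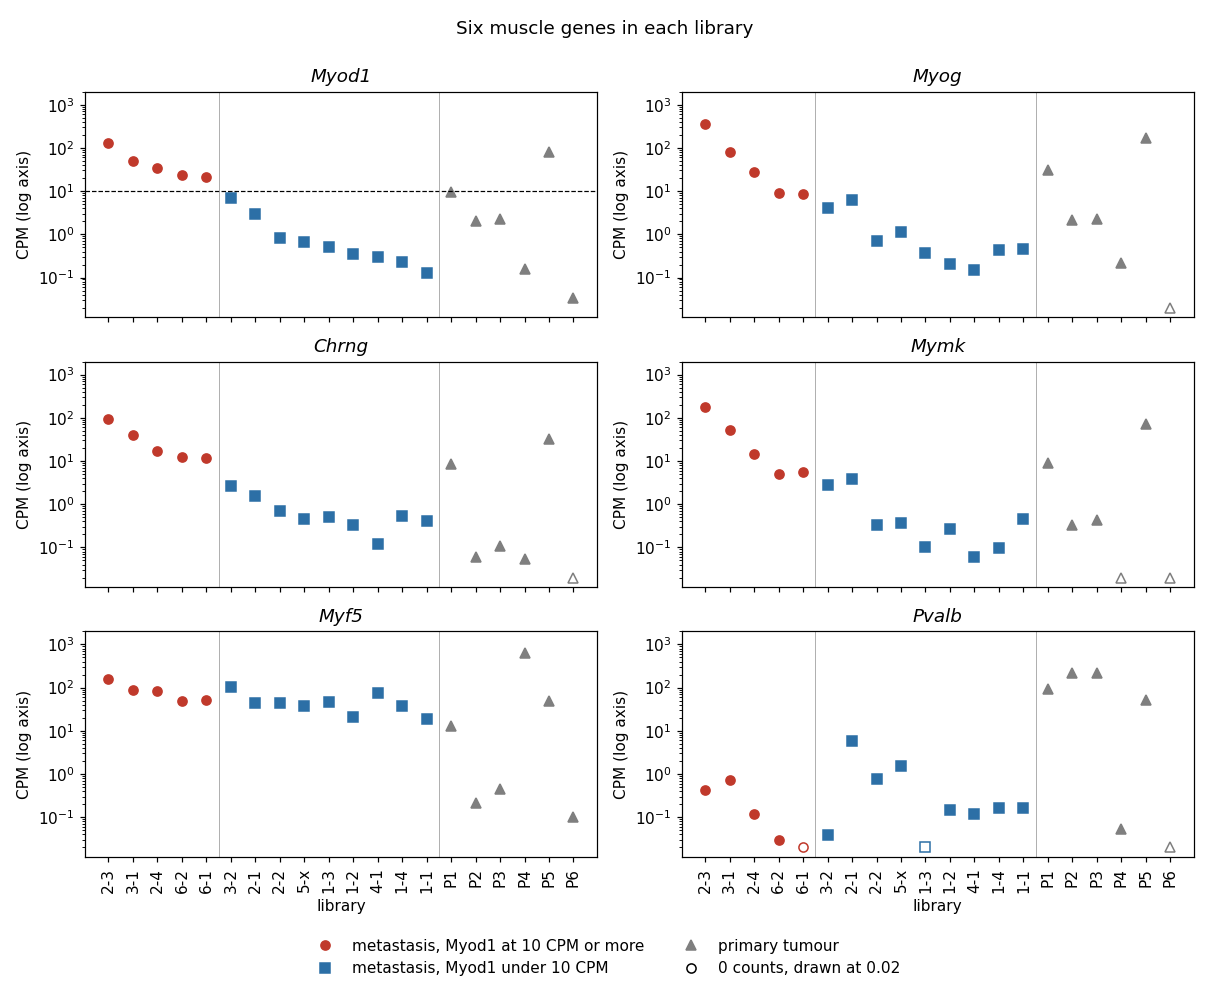
CPM on a log axis of Myod1, Myog, Chrng, Mymk, Myf5 and Pvalb in each library, with red circles for Myod1-high metastases, blue squares for Myod1-low metastases and grey triangles for primary tumours. Open symbols are libraries with 0 counts, drawn at 0.02, and the dashed line in the Myod1 panel is the threshold of 10 CPM. Myog, Chrng and Mymk put all 5 Myod1-high above all 9 Myod1-low metastases, while Myf5 and the adult fibre gene Pvalb overlap. Pvalb does not stand for its list, in which 16 of 31 genes were called higher.

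Levels set per kilobase of exon show how the regulators stood to each other within a library. Myog per Myod1, each per length, was 3.41 in 2-3, 1.92 in 3-1, 0.988 in 2-4, 0.499 in 6-1 and 0.48 in 6-2. Myogenin mRNA thus exceeded Myod1 mRNA in 2-3 and 3-1 and was below it in the pair of set 6. In the Myod1-low metastases the ratio ran from 0.622 in 4-1 to 4.36 in 1-1, where Myod1 had 10 and 4 reads, and was 2.67 in 2-1 with 88 Myod1 reads. It was 3.83 in P1 and 2.6 in P5, so a high ratio was not particular to 2-3 and 3-1. Among primary tumours, P5 held Myod1 at 80.7 CPM with Myog at 168 CPM, P1 held 9.74 and 30 CPM, and P6, the primary tumour of a set whose 2 metastases were both Myod1-high, held Myod1 at 0.0336 CPM.

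Of 17 genes of the satellite cell and myoblast surface, 8 were higher and 1 lower, with a median of 0.96, and 4 had no overlap. Their summed level was 1990 to 3810 CPM in the Myod1-high and 1220 to 1600 CPM in the Myod1-low metastases. The sums of the other muscle lists overlapped between the classes. They were 865 to 2280 against 844 to 1530 CPM for the regulators other than Myod1 and 807 to 5370 against 516 to 902 CPM for the embryonic and fusion genes. For the adult fast fibre genes they were 411 to 3530 against 162 to 969 CPM. Cdh15, the adhesion protein M-cadherin, was at 413, 212, 211, 190 and 159 CPM in 2-3, 3-1, 2-4, 6-2 and 6-1. The Myod1-low metastases ran from 2.25 over 29.6 to 50.5 CPM of Cdh15, all below (3.18 ± 0.47 SE, adjusted p = 0.000786). The laminin receptor subunit Itga7 (1.81 ± 0.43 SE, adjusted p = 0.0098), the heparan sulfate proteoglycan Sdc3 (1.20 ± 0.24 SE, adjusted p = 0.00406) and the myoblast growth factor receptor Fgfr4 (3.07 ± 0.73 SE, adjusted p = 0.00941) also had no overlap. Megf10, Cxcr4, Spry1 and Heyl were higher with overlapping groups, by 2.35, 0.96, 1.25 and 1.20 on the log2 scale. Chodl was lower (-2.60, adjusted p = 0.0395). The remaining 8 genes, Calcr, Sdc4, Met, Ncam1, Dag1, Rapsn, Musk and Lgr5, did not pass. Cdh15, Itga7 and Sdc3 passed with the set as a block, and Fgfr4 did not (adjusted p = 0.0573). The count of 8 was 3 with that block, 3 without set 1 and 1 without set 2. It was 0 with the metastases summed per set and class (8 unadjusted in edgeR, 3 by DESeq2). With the mean log2 CPM of the adult fast fibre list or of the lung epithelium list as a covariate it was 2. Metastasis 4-1 had the lowest mean log2 CPM of this list in its class.

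The embryonic and fusion list showed the highest share of calls among the muscle lists, with 20 of 23 genes higher, 0 lower and a median of 3.37. In edgeR at an unadjusted p under 0.05 the counts were also 20 and 0, and DESeq2 called 20 and 0. Of the 23 genes, 12 had no overlap. By their Myod1-low counts alone 22 of the 23 would have passed the expression filter. Chrng, the fetal gamma subunit of the acetylcholine receptor (chromosome 1, 87204657 to 87212694, plus strand), had 95, 39.6, 17.4, 12.2 and 11.9 CPM in 2-3, 3-1, 2-4, 6-2 and 6-1. It ran from 0.118 over 0.515 to 2.62 CPM in the Myod1-low metastases, all below (44.3-fold by means, log2 fold change 5.47 ± 0.68 SE, adjusted p = 0.00049). The genes of the fusion proteins were higher too, with Mymk (myomaker) at 177, 52.9, 14.8, 5.04 and 5.66 CPM in the same order against 0.0593 to 3.83 CPM (5.80 ± 1.08 SE, adjusted p = 0.00258). Mymx (myomixer) was at least 6.26 CPM in Myod1-high and at most 3.02 CPM in Myod1-low metastases (4.26 ± 0.72 SE, adjusted p = 0.00154).

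Mybph, a myosin-binding protein (chromosome 1, 134193448 to 134201232, plus strand), was at 268, 87.8, 25.5, 8.83 and 7.82 CPM in 2-3, 3-1, 2-4, 6-2 and 6-1. It lay between 0 and 3.33 CPM in the Myod1-low metastases with no overlap (82.1-fold by means, 6.36 ± 0.97 SE, adjusted p = 0.000967). Embryonic myosin, Myh3 (chromosome 11, 67078300 to 67102291, plus strand), had 466, 547, 126, 33 and 32.4 CPM in the same order against 0.805 to 32 CPM, with a median of 2.87 CPM. The lowest Myod1-high value, in 6-1, was next to the highest Myod1-low value (4.98 ± 0.98 SE, adjusted p = 0.00346; adjusted p = 0.0524 with the set as a block). Neonatal myosin, Myh8, was at least 12.6 CPM against at most 8.93 CPM (5.94 ± 1.04 SE, adjusted p = 0.00184). Chrnd, Chrna1 and Chrnb1, further subunits of the muscle acetylcholine receptor, were higher by 3.85, 1.47 and 0.84 on the log2 scale, and the fetal sarcomeric actin Actc1 by 3.37 (adjusted p = 0.0301). With the set as a block Chrnd (adjusted p = 0.0774) and Actc1 (adjusted p = 0.157) did not pass. In the test without a block Nes, Klhl40 and Jam3 did not pass the test, with 0.14, -0.25 and -0.17. With the metastases summed per set and class, 0 of the 23 genes passed in edgeR (20 higher unadjusted, 18 by DESeq2), and without set 2, 7 were called higher. Within the Myod1-high class 2-3 was highest in 20 of the 23 genes, and 6-1 and 6-2 were the lowest 2 in 19. Over all 18236 genes tested these counts were 5392 and 3075.

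The shared sarcomere and structure genes, made in immature and mature muscle, had 18 of 28 higher and 0 lower with a median of 2.93, and 3 had no overlap. The count of 18 was 6 with the set as a block, 7 without set 1, 5 without set 2, 7 without 2-3 and 2-4 and 4 with the adult fast fibre index as a covariate. Skeletal actin, Acta1, was at 2000, 548, 160, 41.8 and 37.2 CPM in 2-3, 3-1, 2-4, 6-2 and 6-1 and between 2.19 and 89.5 CPM in the Myod1-low metastases, so 6-1 and 6-2 overlapped them (5.12 ± 1.10 SE, adjusted p = 0.00573). The slow-type troponins Tnni1 (5.17 ± 0.75 SE, adjusted p = 0.000766) and Tnnt1 (5.03 ± 0.70 SE, adjusted p = 0.000697), which fetal muscle also makes, and Trim54 (4.57 ± 0.81 SE, adjusted p = 0.002) had no overlap.

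Of 31 adult fast fibre genes tested, 16 were higher and 0 lower, with a median of 2.77, and 2 had no overlap. Unadjusted, 22 passed, and 28 of the 31 would have passed the expression filter by their Myod1-low counts alone. The count of 16 was 9 without 2-3, 1 without set 1, 6 without set 2 and 0 with the metastases summed per set and class (22 unadjusted in edgeR, 18 by DESeq2). The calcium release channel Ryr1 had no overlap, at 289, 273, 71.8, 58.5 and 53.6 CPM in 2-3, 3-1, 2-4, 6-2 and 6-1 against 1.36 to 30.8 CPM (4.44 ± 0.78 SE, adjusted p = 0.0019). Fast regulatory light chain Mylpf (4.64 ± 1.04 SE) and fast troponin Tnni2 (3.33 ± 0.74 SE) passed with overlapping groups. Pvalb, Myh4, Ckm and Myh1 were chosen here after their values were seen and do not stand for the list. Of these, only Myh1 passed. Pvalb, the calcium buffer parvalbumin, was at 0.431, 0.744, 0.12, 0.0296 and 0 CPM in the same order and between 0 and 5.81 CPM in the Myod1-low metastases (-1.92 ± 1.32 SE, adjusted p = 0.339). The primary tumours P1, P2, P3 and P5 held Pvalb at 92.3, 215, 223 and 50.8 CPM. Myh4, the fastest adult myosin, was at 83.7, 92.7, 24.1, 3.35 and 4 CPM in 2-3, 3-1, 2-4, 6-2 and 6-1, within the Myod1-low range of 0.481 to 99.9 CPM (1.45 ± 1.15 SE, adjusted p = 0.416). The creatine kinase gene Ckm had 2.86 ± 1.11 SE (adjusted p = 0.0845), and Myh1, another adult fast myosin, was higher by 3.41 ± 0.80 SE (adjusted p = 0.00893, and 0.0664 with the set as a block).

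The proportion of developmental myosin was set out per length as Myh3 plus Myh8 in percent of these and the adult fast myosins Myh1, Myh2 and Myh4. It was 63.5% in 2-3, 65.4% in 3-1, 71.9% in 2-4, 71.9% in 6-2 and 70.1% in 6-1. In the Myod1-low metastases it ran from 12.4% over a median of 19.1% to 60.4% in 3-2, with 46.8% in 1-1 as the next. In the primary tumours it ran from 0.122% to 20.9%. These shares are a description without a test. They rest on 1959 (6-1) to 28437 (3-1) myosin reads in the Myod1-high metastases and on 149 (1-2) to 5863 (2-1) in the Myod1-low ones. The primary tumours held 12 (P6) to 169974 (P5) such reads, so some shares rest on few. The total amount varied more than the share did, with 92.7 CPM per kilobase of developmental and 53.2 of adult myosin in 2-3 but 6.61 and 2.59 in 6-2. Primary tumour P5, which held Myod1 and Myog at the levels given above, had 162 CPM per kilobase of developmental and 614 of adult fast myosin.

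**Figure D3:**
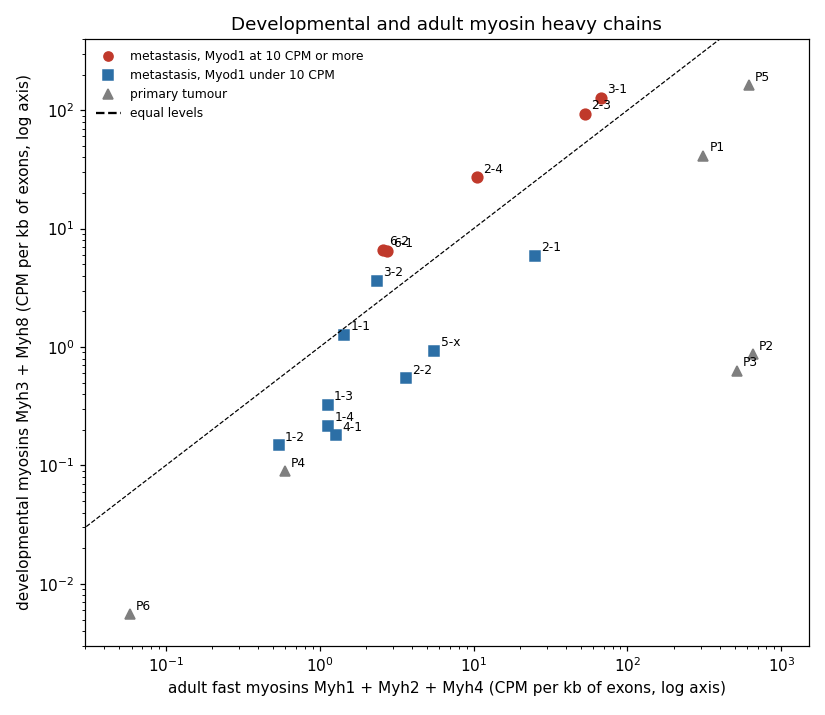
Developmental myosin (Myh3 plus Myh8) against adult fast myosin (Myh1, Myh2 and Myh4) in CPM per kilobase on log axes, 1 point per library, with a dashed line where both are equal. The 5 Myod1-high metastases and 3-2 lie above the line, and the other metastases and the primary tumours lie below it.

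Fitting the adult fast fibre index, the mean log2 CPM of that list, as a covariate left 6 of 23 embryonic and fusion genes called higher with a median of 1.67. Chrng (3.74, adjusted p = 0.00798), Mybph (3.04, adjusted p = 0.01), Cdh15 (2.61, adjusted p = 0.0157) and Dok7 (3.27) kept their calls. Myog (2.52, adjusted p = 0.063), Mymk (2.54, adjusted p = 0.0847), Myh3 (2.21, adjusted p = 0.071) and Hes6 (adjusted p = 0.0761) did not. The index is made of genes of which 16 of 31 were themselves called higher. Among the metastases it was highest in 2-3 (5.2) and 3-1 (4.77), those with most Myod1. The covariate thus overlaps with Myod1 class, so kept or lost calls cannot tell tumour from host muscle. Leaving out 2-3 and 2-4, an alternative chosen after seeing the data, left 12 embryonic and fusion genes (median 2.54) and 4 adult fast fibre genes (median 2.28) called higher. Myog then had 4.39 (adjusted p = 0.0213), Chrng 4.74 (adjusted p = 0.00694) and Mymk 4.53 (adjusted p = 0.0247).

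Within the 2 sets that held both classes the direction was the same for most muscle genes. In set 2 the mean of 2-3 and 2-4 was above that of 2-1 and 2-2 in 21 of 23 embryonic and fusion genes, and in set 3 metastasis 3-1 was above 3-2 in 23 of 23. The corresponding counts over all tested genes were 9238 and 9907 of 18236. Myog differed by 5.48 in set 2 and 4.24 in set 3 on the log2 scale, and Cdh15 by 3.05 and 3.54. Myf5 differed by 1.43 in set 2 and -0.23 in set 3. The sets were unlike for Chrnd, which differed by 4.52 in set 2 and by 0.70 in set 3, and for Megf10, with 3.80 and -0.05. With the set as a block, 9 embryonic and fusion genes and 4 adult fast fibre genes were called higher. Beside the genes for which it is given elsewhere, the block ended the calls named here for Megf10, Cxcr4, Spry1, Heyl, Chodl, Chrna1, Chrnb1, Trim54, Myoz2, Fhl2, Ache, Mbp, Tagln, Actg2, Notch2, Igf2, H19, Spry4, Pmaip1, Ccnd2, Lox, Loxl2, Thbs1, Meox1, Lamp3, Hopx, Hapln1, Lyz1 and Fam189a1. Their adjusted p then lay between 0.0502 for Ache and 0.61 for Actg2.

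Other muscle lists had fewer calls. Of 5 slow fibre and cardiac shared genes, the Z-disc protein Myoz2 was higher (3.44) and Fhl2 lower (-0.87). Of 12 atrial and cardiac genes 0 passed in either direction with edgeR (0 and 0 unadjusted, 0 and 0 by DESeq2), with a median of -0.63. Metastasis 3-1 was the highest of its class in 10 of them, against 4903 of all 18236 genes tested. Of 9 neuromuscular junction and nerve genes, Dok7, an activator of the MuSK receptor, was higher with no overlap at 81.7, 38.3, 12.8, 10.9 and 8.58 CPM in 2-3, 3-1, 2-4, 6-2 and 6-1 against at most 1.93 CPM (5.15 ± 0.65 SE, adjusted p = 0.00049). The acetylcholinesterase gene Ache was higher (3.79) and the myelin gene Mbp lower (-1.89). Of 15 smooth muscle and pericyte genes 0 were higher (0 unadjusted and 0 by DESeq2) and 3 were lower. Rgs5, a pericyte marker, lay between 40 and 71.5 CPM in the Myod1-high metastases against 80.2 to 1388 CPM, with no overlap (-4.01 ± 0.52 SE, adjusted p = 0.000523), and Tagln (-2.57) and Actg2 (-1.72) fell too.

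Growth factor pathways had a few large differences. Igfbp5, an insulin-like growth factor binding protein of differentiating myoblasts, was at 3886, 1892, 1426, 608 and 655 CPM in 2-3, 3-1, 2-4, 6-2 and 6-1. It lay between 52.4 and 591 CPM in the Myod1-low metastases, where 3-2 was highest (3.69 ± 0.63 SE, adjusted p = 0.0016). The fetal growth factor Igf2 stood at 3.88, 608, 104, 24.9 and 25.5 CPM in the same order, so 2-3, with the most Myod1, had the least Igf2 of all 14 metastases (3.07 ± 0.80 SE, adjusted p = 0.0152). Its imprinted neighbour H19 was highest in 2-3 at 3109 CPM (2.63 ± 0.69 SE, adjusted p = 0.0158; 1.04, adjusted p = 0.222 without 2-3 and 2-4). Of 19 genes of this insulin-like growth factor and imprinted list 4 were higher and 1 lower. The 4 became 1 with the set as a block, 2 without set 1 and 1 without set 2. The Notch ligand Dll1 lay between 71 and 103 CPM against 2.9 to 37.9 CPM, with no overlap (3.04 ± 0.55 SE, adjusted p = 0.00229, and 0.0698 with the set as a block), and the receptor Notch2 was lower (-1.69), while 4 of 18 Notch pathway genes were higher and 1 lower. The count of 4 ranged from 2 to 7 on leaving out 1 metastasis, with 7 without 1-1 and 2 without 1-3, 1-4, 2-1, 2-2, 2-3, 5-x, 6-1 or 6-2. Of 22 genes of fibroblast growth factor and receptor kinase signalling 6 were higher, among them the feedback inhibitor Spry4 (1.41) and the target Etv4 (1.55), and 2 were lower, among them Fgf7 (-2.04 ± 0.28 SE).

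Cell cycle genes were higher in part, with 8 of 30 higher, 0 lower (0 unadjusted and 0 by DESeq2) and a median of 0.47. Foxm1, a factor of the G2 and M phase programme, lay between 70.1 and 182 CPM against 10.7 to 38.7 CPM with no overlap (2.04 ± 0.31 SE, adjusted p = 0.000869). The replication licensing gene Mcm3 stood at 1014, 236, 163, 121 and 122 CPM in 2-3, 3-1, 2-4, 6-2 and 6-1 against 21.7 to 83.3 CPM (2.42 ± 0.46 SE, adjusted p = 0.00293). The count of 8 was 5 without 2-4, 2 without 2-3 and 2-4, 16 without 3-2 and 4-1, 2 with the set as a block and 1 without set 2. Among 21 cell cycle inhibitors and p53 targets 1 was higher, Pmaip1 (1.36), and 2 were lower, Ccnd2 (-1.47 ± 0.23 SE), a cyclin kept in this list, and the p53 target Ccng1. Over all genes tested 8.82% were higher and 10.1% lower, so these counts do not set the list apart.

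Of 25 collagen and matrix genes 0 were higher (1 unadjusted, 0 by DESeq2) and 8 lower with a median of -0.78. With the set as a block 0 were lower in edgeR (median -0.25), and without set 2, 2 were. Within set 2 the Myod1-high mean was above the Myod1-low mean in 8 of 25 genes, and within set 3, 3-1 was above 3-2 in 20 of 25. The collagen crosslinking enzymes Lox (-2.93 ± 0.54 SE) and Loxl2 (-2.51 ± 0.41 SE) and the matrix glycoprotein Thbs1 (-2.14 ± 0.39 SE) were lower, all with overlapping groups. The mesenchymal and limb patterning factors had 3 of 24 higher and 2 lower, with a median of 0.12. These counts are close to the shares over all genes tested, 8.82% higher and 10.1% lower, so the list did not stand apart. Lbx1, a factor of migrating limb muscle precursors, was higher (3.68 ± 0.65 SE, adjusted p = 0.002), as was the tendon factor Scx (1.75), and the somite factor Meox1 was lower (-1.86).

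Macrophage, erythroid and interferon-stimulated genes were the lists of other cells or responses with most calls, all lower in the Myod1-high metastases, and their part in the muscle differences was not tested. Within set 2 the Myod1-high mean was above the Myod1-low mean in 0 of 15 macrophage, 0 of 9 erythroid and 2 of 19 interferon-stimulated genes. Within set 3, metastasis 3-1 was above 3-2 in 11 of 15, 2 of 9 and 6 of 19, against 9907 of 18236 genes tested. Macrophage genes had 13 of 15 lower and a median of -2.18, and their summed level was 582 to 1420 CPM in the Myod1-high and 609 to 6470 CPM in the Myod1-low metastases, where 3-2 was lowest. The count of 13 was 3 with the set as a block, 3 without set 2, 6 without set 1, 6 in limma voom with the set as a random effect, 8 without 2-4 and 2 at a Myod1 threshold of 1 CPM. Lyz2, a myeloid lysozyme, was at 114, 167, 138, 200 and 202 CPM in 2-3, 3-1, 2-4, 6-2 and 6-1 against 215 to 3521 CPM (-3.54 ± 0.51 SE, adjusted p = 0.000766, and 0.0578 with the set as a block). The mannose receptor Mrc1 also had no overlap (-2.38 ± 0.34 SE). Erythroid genes were lower in 9 of 9 with a median of -4.11, of which 5 passed with the set as a block and 0 without set 2. Interferon-stimulated genes were lower in 10 of 19 with a median of -1.82, among them Rsad2 (-3.55). That count was 16 by DESeq2, 5 in limma voom, 5 without 6-2, 5 without set 1 and 1 each with the set as a block, without set 2 and without set 6. It was 6 without 2-4 or without 6-1. T and natural killer cell genes had 3 of 11 lower, B and plasma cell genes 3 of 10, and neutrophil and mast cell genes 4 of 10. Each of these counts was 1 with the set as a block and 0 without set 2. Without 2-3 and 2-4 they were 0, 0 and 3, and the B and plasma count was also 0 without 6-2 and with no filter on low counts. Within set 2 the Myod1-high mean was above in 0 genes of the T and natural killer, B and plasma, and neutrophil and mast cell lists. Within set 3, metastasis 3-1 was above 3-2 in 5 of 11, 7 of 10 and 6 of 10. Of 7 adipocyte genes 0 passed in edgeR (1 lower unadjusted, 0 by DESeq2), and of 7 mesothelium genes 0 passed (2 lower unadjusted, 2 by DESeq2).

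Lung epithelium genes had 5 of 23 lower and a median of -2.27, with summed levels of 680 to 1880 CPM in the Myod1-high and 742 to 16700 CPM in the Myod1-low metastases. The count of 5 depended on the setting and the libraries, with 15 unadjusted, 15 by DESeq2, 1 with the set as a block and 0 without set 2. It was 14 without 3-2, 10 without 1-3, 8 without 1-4, 2 without 2-3 and 3 each without 1-2, 2-4, 5-x or 6-2. Within set 2 the Myod1-high mean was above the Myod1-low mean in 0 of 23 lung epithelium and 2 of 16 endothelial genes. Within set 3, metastasis 3-1 was above 3-2 in 16 of 23 and 9 of 16. Cldn18, an alveolar tight junction protein, was at 0.359, 2.88, 0.932, 15.9 and 15 CPM in 2-3, 3-1, 2-4, 6-2 and 6-1 against 17.8 to 239 CPM (-3.50 ± 0.93 SE, adjusted p = 0.0165), and Lamp3 (-5.56) and Hopx (-3.27) were lower. Endothelial genes had 5 of 16 lower (9 unadjusted and by DESeq2, 1 with the set as a block, 0 without set 2, 9 without 3-2, 2 without 2-3 or 2-4 and 3 without 1-2, 1-4, 3-1, 5-x, 6-1 or 6-2), among them Emcn with no overlap (-1.43 ± 0.24 SE). When the mean log2 CPM of the lung epithelium list was a covariate, Chrng kept its call (4.55, adjusted p = 0.0114), while Myog (4.53, adjusted p = 0.0655), Mymk (4.58, adjusted p = 0.0607) and Hes6 (2.10, adjusted p = 0.0592) did not pass. In that fit 11 of 23 embryonic and fusion genes were called higher, and the list's median was 3.03 against 3.37 without the covariate. The 4 tested hepatocyte genes were all higher, Alb by 9.70 and Apoa1 by 10.81, through 2-3 and 2-4, and without those libraries 0 of 4 passed in edgeR (median -0.37).

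**Figure D4:**
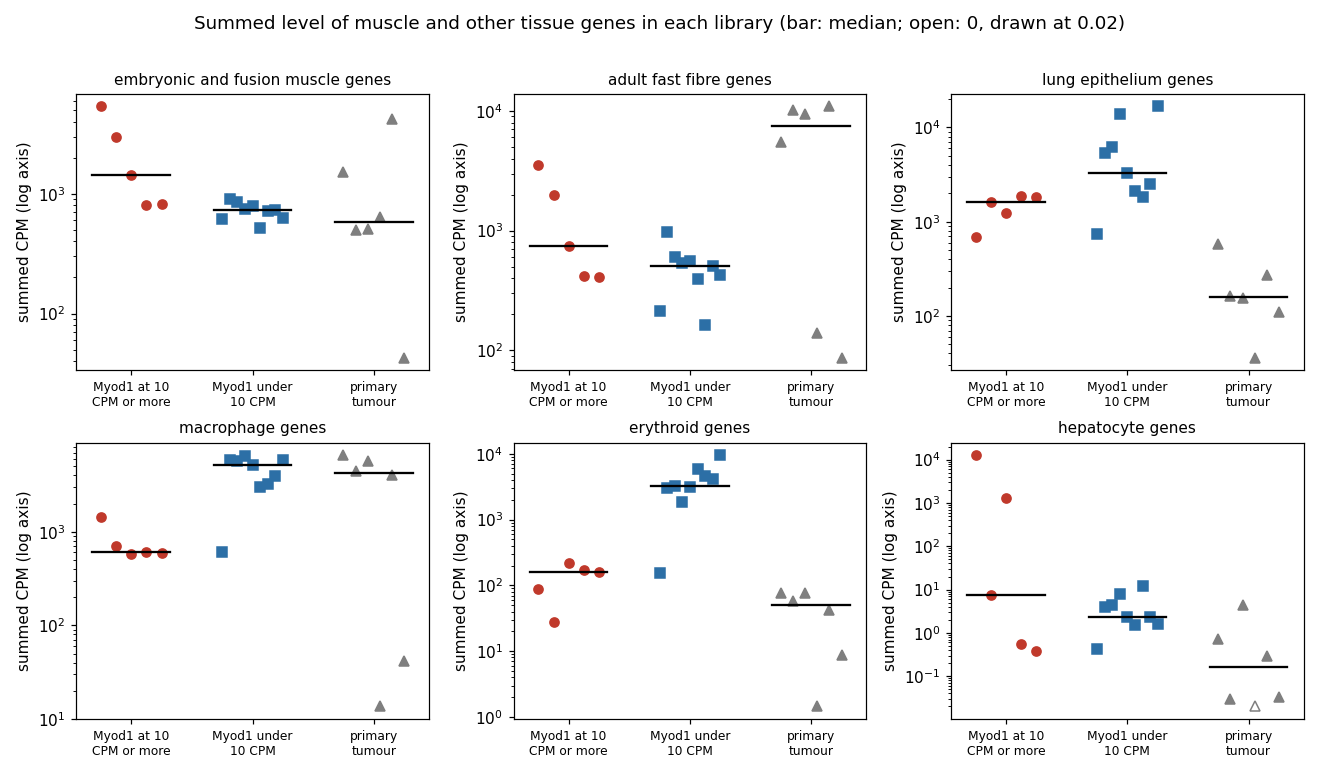
Summed CPM on a log axis of the embryonic and fusion, adult fast fibre, lung epithelium, macrophage, erythroid and hepatocyte lists in each library, by class and for the primary tumours, with a bar at the median. Open symbols are sums of 0, drawn at 0.02. Macrophage sums overlap only through 3-2, which stands at 609 CPM, and the hepatocyte sums are high in 2-3 and 2-4 alone. The embryonic and fusion, adult fast fibre, lung epithelium and erythroid sums overlap between the classes too.

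Among genes with an established symbol, a mean log2 CPM of 2 or more and no overlap, and outside the muscle, lung, blood and immune lists, the largest rises were Ank1 (4.38), Pnmal2 (4.17), Igfbp5 (3.69), Ptprn (3.55), Cx3cl1 (3.31), Fam189a1 (3.28), Gpld1 (3.21), Ccdc8 (3.08), Hist1h3e (3.08) and Ogdhl (3.05), all as log2 fold changes. Ank1, which makes ankyrin and a short muscle form at the sarcoplasmic reticulum, had 290, 100, 84.8, 77.6 and 74 CPM in 2-3, 3-1, 2-4, 6-2 and 6-1 against 1.04 to 31.2 CPM. The chemokine gene Cx3cl1 lay between 184 and 826 CPM against 9.21 to 49.4 CPM (adjusted p = 0.000386). The largest falls were Zic1 (-5.91), Hapln1 (-5.87), Epb41l3 (-5.50), Lyz1 (-5.18), Fez1 (-4.995), Casp12 (-4.44), Casp4 (-4.31), Ctla2b (-4.15), Clec4d (-4.13) and F13a1 (-4.05). Zic1, a zinc finger factor of neural and somite patterning, was at most 0.943 CPM in the Myod1-high and at least 5.48 CPM in the Myod1-low metastases. The membrane skeleton gene Epb41l3 was at most 1.19 CPM against at least 4.93 CPM (adjusted p = 6.55e-05), and Lyz1, Clec4d and F13a1 are genes of myeloid cells. Neat1, the RNA named in the study's title, was at 1681, 4098, 1232, 3908 and 4137 CPM in 2-3, 3-1, 2-4, 6-2 and 6-1 against 754 to 4307 CPM and did not pass the test (0.76 ± 0.42 SE, adjusted p = 0.221).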

How the data were processed

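RNA from 6 primary tumours and 14 lung metastases was prepared with a Direct-zol kit and stranded Ribo-Zero Gold libraries, per the labels' protocols. Trimmomatic 0.36, STAR (given as 5.5.4b), HTSeq and mm10 are named in the submitters' processing notes, and neither annotation release nor strand setting is given in the sources used here. The deposited table holds raw counts per gene from the authors for 51826 genes, of which 51633 had a symbol, and genes without one held 0.017% of counts.

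From these counts, CPM were computed with TMM factors over 20 libraries, and log2 CPM with a prior count of 2. The 14 metastases were fitted in R 4.3.3 with edgeR 4.0.16 (quasi-likelihood test, filterByExpr with a minimum count of 10, 12 residual degrees of freedom) on Myod1 class, with Benjamini-Hochberg adjustment over 18236 genes. The script was tested on simulated data. The members, the 27 gene lists and the tests were chosen with earlier results of these data known.

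Named genes are every member of the regulator, satellite and embryonic lists, the 10 largest rises and falls without overlap at a mean log2 CPM of 2 or more outside the muscle, lung, blood and immune lists, and the 3 of smallest p per other list. Others were chosen after their values were seen. Some genes the rule names are not reported here. The labels match metastases to primary tumours by set. Deviations of the 2 classes correlated at 0.158 in set 2 and -0.195 in set 3, the only sets with both classes. These values rest on few libraries and do not show that the set can be ignored. The set block was planned as an alternative because the labels do not tell whether sets hold both classes. Its values are given with the results it changes. Other alternatives were DESeq2 1.42.0, limma 3.58.1 (voom, consensus correlation within set 0.429), no filter, other Myod1 thresholds, Myod1 as a covariate, adult fast fibre or lung index as a covariate, a 1.5-fold test, summing per set, and leaving out libraries or sets. Leaving out 2-3 with 2-4 or 3-2 with 4-1, TMM from metastases alone and summing 6-1 with 6-2 were added after seeing the data. Promoter windows came from RefSeq (GRCm38.p6).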

Additional observations from a re-analysis of the deposited data

Results flagged for a closer look

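The spread within each class was checked for 1 library far from the others on the mean log2 CPM of each of the 27 lists and on 5 genes (Myog, Myf5, Myh3, Igf2 and H19). Of 64 such checks 7 found one, and chance alone gives about 1 in 20. In the Myod1-low class, 4-1 had a mean of 3.4 for the satellite cell and myoblast surface genes, with the next at 4.01. In the same class 3-2 had 0.895 for the erythroid genes, with the next at 4.24, and 3.52 for the macrophage genes, with the next at 5.59. In the Myod1-high class 3-1 was highest for 3 lists, with 1.85 for the atrial and cardiac genes (next -1.02), 2.74 for the adipocyte genes (next -0.04) and 0.213 for the neutrophil and mast cell genes (next -0.69). Metastasis 2-4 was lowest in that class for the mesothelium genes, at 0.0925 with the next at 1.93. Metastases 3-2 and 4-1 are also those with little Rmrp, and the relation of that to these values was not tested.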

How the results depend on the processing

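The counts of 1609 genes higher and 1843 lower, with 20 embryonic and fusion and 16 adult fast fibre genes higher, moved with the unit of replication, the sets used and the covariates. The replicate block on set gave 499 and 244 (9 and 4), of which 424 and 239 were among the main calls. Sums per set and class gave 4 and 0 (0 and 0). Without set 1 the counts were 563 and 798 (adult fast 1), without set 2 120 and 153 (7 and 6), and without set 6 1056 and 619. The adult fast fibre index as a covariate gave 375 and 961 (6 and 2) and the lung index 436 and 766 (11 and 3). Testing against a 1.5-fold change gave 702 and 850, a threshold of 5 CPM 2511 higher, 1 CPM 627 lower, and DESeq2 2787 lower. Of the alternatives added later, leaving out 2-3 and 2-4 gave 645 and 965 (12 and 4), leaving out 3-2 and 4-1 gave 3735 and 3575, and summing 6-1 with 6-2 gave 1205 lower. Leaving out 1 metastasis at a time gave 1191 to 2499 higher (most without 3-2), 1168 to 2462 lower (fewest without 6-2), 15 to 20 embryonic and fusion and 9 to 19 adult fast fibre genes. Actc1 (-0.16) and H19 (-0.24) changed sign with the adult fast fibre index, and Alb (-0.38 in both) without set 2 and without 2-3 and 2-4. The cause was not tested. Over 34 alternatives Chrng, Mybph, Cdh15 and Dok7 kept their call in 33, and Myog, Mymk and Myh3 in 31. The alternatives share libraries and are not independent checks, and the threshold of 20 CPM repeats the main fit. The alternative in which Chrng, Mybph, Cdh15 and Dok7 lost their call was the sums per set and class. Log2 fold changes ran from 2.52 to 7.14 for Myog and 3.74 to 5.99 for Chrng. With 5 metastases from 3 sets in the Myod1-high class, few sets limit the precision, and levels under 1 CPM rest on few counts.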
